A study of Mus musculus with 4 samples.

Results

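The proteins of the cytosolic ribosome are encoded by a large family of short, highly expressed genes, and the transcripts of this family were described here in mouse melanoma tumours profiled by single-cell RNA sequencing. The members are all genes whose symbol is Rps or Rpl followed by a digit, together with Rplp0, Rplp1, Rplp2 and Rpsa, that had at least 100 unique molecular identifiers (UMIs, 1 for each captured RNA molecule) over the 4 count matrices. Pseudogenes named -ps, mitochondrial ribosomal proteins and S6 kinases were not members. By its letters the rule took 86 of 31053 genes, of which 84 reached 100 UMIs. Rps19bp1 is 1 of those 84 but encodes a protein that binds Rps19, and it was set apart, leaving 83 members, 33 of the small and 50 of the large subunit. Rpl3l and Rpl10l did not reach 100 UMIs.

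Ribosomal proteins assemble with ribosomal RNA in the nucleolus, and each ribosome needs them in equal numbers, so their genes are usually expressed together. Their messenger RNAs begin with a run of pyrimidines at the 5′ end (the 5′ terminal oligopyrimidine tract, TOP), through which growth signalling by the kinase mTOR and the RNA-binding protein Larp1 sets how well they are translated and kept. Some members have additional roles, such as Rpl5 and Rpl11, which with the 5S ribosomal RNA bind and hold back Mdm2, the main inhibitor of p53. A few members are duplicated genes, or paralogs, used in particular tissues.

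The tumours were grown from B16F10, a mouse melanoma cell line, in mice, and were dissociated without sorting for 5′ gene-expression libraries. Each of 4 groups gave 1 library. Besides the control these were a group given an antibody to PD-1, an inhibitory receptor of T cells (aPD-1), a group given the anthracycline doxorubicin with the ROCK kinase inhibitor fasudil (D+F), and a group given all 3 agents (D+F+P). Doses, times, the age and strain of the mice, the treatment of the control mice and the number of animals behind a library are not given in the sources used here. A single library per group allows no test between groups. Each comparison is therefore one of libraries, in which treatment cannot be told apart from anything else that differed between their preparations. Ranges in brackets are exact 95% intervals of the counting error alone.

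Values for the 4 libraries are always given with control first, followed by aPD-1, then D+F, then D+F+P. The libraries held 2529, 2525, 2809 and 2739 barcodes. After filtering, 9461 of 10602 barcodes remained, with median depths of 16163, 9589, 12888 and 1876 UMIs, so the D+F+P library stands apart. In all, 69 barcode sequences occurred in more than 1 library, 50 of them among the kept barcodes, and doublets were not removed. Cells were grouped into classes by clustering without the 83 genes and named from marker genes. Melanoma-like cells numbered 1905, 1098, 1704 and 531 and carried all 9 melanoma markers (among them Mlana, Pmel and Tyrp1) at a summed 10484 to 11284 CPM (UMIs of a gene per 1000000 UMIs), with T cell markers at 1.9 to 12.2 CPM. T-like and NK-like cells together numbered 81, 499, 337 and 614, and monocyte/macrophage-like cells 63, 246, 104 and 92. The melanoma-like cells of the libraries came from different clusters: 615 of 1905 control cells were in the proliferating cluster 0, whose leading genes include Mki67 and Top2a, and 241 of 531 D+F+P cells were in cluster 3, led by the interferon-inducible genes Gbp2 and Gbp4.

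The start of several members is shown here because the TOP tract is a known element in the regulation of this family. The genes were picked by hand, and 5 duplicated members among them have no tract at their annotated start. That does not set duplicated members apart. Rpl22, Rpl36a and Rpl39, whose paralogs are shown, have none there either, and the duplicated Rps27rt has a tract. Each line gives 10 bases before and 20 bases from the annotated transcription start on the gene's strand, read from RefSeq (GRCm38.p6). Capitals mark a C at the start followed by at least 4 bases that are each C or T. The first 6 genes have such a tract exactly at the annotated start and the last 5 do not.
Rps6, chr4:86857348-86857377, minus strand: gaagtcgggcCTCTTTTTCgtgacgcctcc
Rps18, chr17:33955646-33955675, minus strand: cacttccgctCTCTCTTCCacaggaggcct
Rps21, chr2:180257369-180257398, plus strand: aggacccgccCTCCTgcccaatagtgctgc
Rps27, chr3:90213629-90213658, minus strand: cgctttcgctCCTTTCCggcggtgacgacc
Rpl38, chr11:114668570-114668599, plus strand: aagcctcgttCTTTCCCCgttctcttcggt
Rplp2, chr7:141447641-141447670, plus strand: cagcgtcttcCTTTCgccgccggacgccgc
Rps27l, chr9:66946076-66946105, plus strand: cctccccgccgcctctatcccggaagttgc
Rpl22l1, chr3:28805498-28805527, plus strand: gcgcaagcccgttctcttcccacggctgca
Rpl36al, chr12:69184048-69184077, minus strand: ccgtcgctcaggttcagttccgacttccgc
Rpl7l1, chr17:46782637-46782666, minus strand: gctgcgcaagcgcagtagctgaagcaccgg
Rpl39l, chr16:10170218-10170247, plus strand: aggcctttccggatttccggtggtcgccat

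A start window was found for 63 of the 83 members, and 13 of them (20.6%) had a tract exactly at the annotated start, against 2.49% of 27025 genes searched the same way. The 13 are Rps6, Rps10, Rps15a, Rps18, Rps21, Rps27, Rps27rt, Rpl14, Rpl15, Rpl28, Rpl35, Rpl38 and Rplp2. The search read only the gene's own strand and only the annotated position, so a start annotated a few bases away gives no match, and a match is a description of letters. All 83 members are annotated as protein-coding genes and they lie on 19 chromosomes. Most have near-identical processed copies elsewhere in the genome: 77 members had at least 1 pseudogene transcript at least 95% identical over at least 80% of the coding sequence, with a median of 5, and Rpl21 had 56. How the authors' counting divided such reads is not given in the sources used here, so levels of members with many copies are uncertain, while members such as Rps27l, Rps3, Rpl8, Rplp2 and Rpl39l had none. The 9 genes named -ps held 10743 UMIs in all, against 25026202 for the members.

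The 83 members made up 21.5% of all UMIs, and 57 of the 100 genes with most UMIs were members. A UMI is counted once per captured molecule at its 5′ end, so the levels compared between genes here are in CPM without scaling by length. The most abundant members over all kept barcodes were Rpl32, a large-subunit protein, at a mean of 8736 CPM over the libraries, Rpl13 at 7455 CPM and Rpl41, the shortest ribosomal protein, at 5931 CPM. They were followed by Rpsa, which also occurs as a laminin receptor, at 5525 CPM and by Rplp0, the base of the acidic stalk, at 5332 CPM. The least abundant were Rpl39l at 1.9 CPM, Rps27rt at 21.1, Rpl7l1 at 64.3, Rpl13a at 123 and Rpl36al at 148 CPM. Apart from Rpl13a these are duplicated genes, and the next member, Rpl5, stood at 658 CPM. Small-subunit members held 42.0% of the family's UMIs.

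The family's share of UMIs differed between cell classes in each library, and by less between the libraries of melanoma-like cells. Control and D+F+P monocyte/macrophage-like cells differed by more (log2 ratio 0.45) than T/NK-like and melanoma-like cells of any library (0.34 to 0.39). In melanoma-like cells it was 20.07% (20.06 to 20.08), 22.15% (22.13 to 22.17), 21.87% (21.85 to 21.88) and 22.69% (22.66 to 22.71). In T-like cells it was 24.0% (23.8 to 24.2), 28.16% (28.11 to 28.21), 27.62% (27.55 to 27.69) and 28.74% (28.70 to 28.78). In NK-like cells the share was 28.4%, 26.9%, 29.8% and 29.3%, so lymphocytes lay above melanoma-like cells in 4 of 4 libraries.
Monocyte/macrophage-like cells were lower, at 14.29% (14.15 to 14.42), 16.46% (16.39 to 16.53), 17.52% (17.41 to 17.63) and 19.55% (19.44 to 19.67). Neutrophil-like cells had the lowest share of any named class, 4.45% (4.26 to 4.66) over 36 cells of the 4 libraries together. Conventional dendritic-like cells stood at 18.03% (42 cells), plasmacytoid dendritic-like cells at 21.5% (68 cells) and fibroblast-like cells at 23.4% (86 cells).
These shares are relative to all RNA captured from a class, and a smaller share cannot be told apart from more RNA of other genes.

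**Figure D1:**
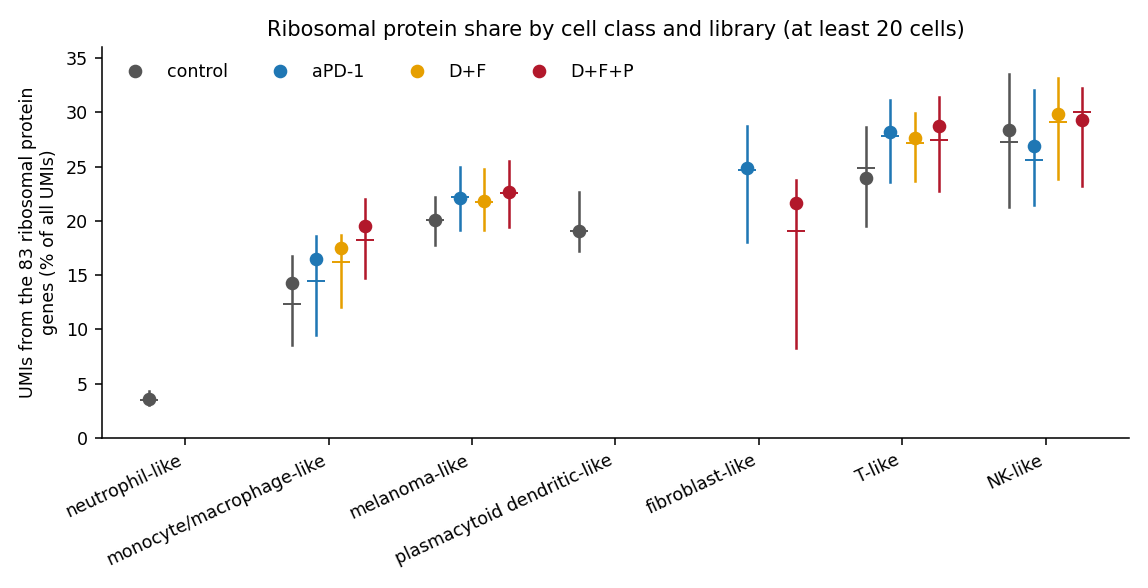
Share of UMIs from the 83 ribosomal protein genes (%, vertical axis) by cell class and library, for classes with at least 20 cells in the library. Points are summed shares, horizontal ticks the median per cell and vertical lines the interquartile range over cells; neutrophil-like control cells sit at 3.56% and NK-like D+F cells at 29.8%.

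Ribosomal protein RNA took a larger share of the UMIs of T-like and NK-like cells than of melanoma-like cells of the same library, while single members differed in both directions. The number of such UMIs per cell ran the other way, with means of 1087, 1798, 1533 and 2526 in T/NK-like and 3463, 4215, 3643 and 6271 in melanoma-like cells. The log2 ratio of the family's share, T/NK-like against melanoma-like, was 0.39 (0.38 to 0.40), 0.34 (0.34 to 0.35), 0.35 (0.34 to 0.35) and 0.34 (0.34 to 0.35). Of the 82 members with at least 100 UMIs in the pair, 49, 45, 45 and 45 were at least 25% higher in T/NK-like cells, where the shares of all genes past that bound were 25.7%, 27.5%, 26.2% and 30.5%. Another 7, 8, 7 and 7 members were at least 20% lower, the same fold in the other direction, against 54.8%, 51.4%, 52.7% and 47.7% of all genes. The median member lay at 0.39, 0.35, 0.37 and 0.37 and the median gene at -0.48, -0.36, -0.40 and -0.25, while small-subunit members (0.49, 0.42, 0.44 and 0.44) lay above large-subunit ones (0.33, 0.25, 0.26 and 0.28). Melanoma markers summed to 329, 226, 417 and 131 CPM in T/NK-like cells, and their part in these ratios was not tested.

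Rps27, a zinc-finger protein of the small subunit, was among the 5 members with the highest ratio in lymphocytes in each library. It stood at 694, 850, 672 and 900 CPM in melanoma-like cells and at 1784, 1832, 1423 and 2035 CPM in T/NK-like cells, a log2 ratio of 1.36 (1.24 to 1.48), 1.11, 1.08 and 1.18. The 4 lymphocyte values all lie above the 4 melanoma-like values. Rps27rt, a retrotransposed copy of Rps27, stood at log2 ratios of 1.48, 1.17, 1.32 and 1.08, but its share of the pair's UMIs was nearly the same in every class (2.28% in melanoma-like, 2.26% in T-like, 2.30% in NK-like and 2.28% in monocyte/macrophage-like cells), and reads of these near-identical genes cannot be told apart with certainty.
Rpl36a, of the large subunit, went from 684, 800, 724 and 831 CPM in melanoma-like cells to 1583, 1612, 1491 and 1629 CPM in T/NK-like cells. Rpl34, another large-subunit protein, went from 1886, 2176, 2086 and 2243 to 3992, 4259, 3979 and 4369 CPM. Rpl5 went from 627, 586, 587 and 579 to 1065, 1117, 1209 and 1151 CPM.
For all 3 genes each lymphocyte value was above every melanoma-like value. These genes and Rps27 lie at the upper end of the ratios, so the lack of overlap follows in part from how they were picked. Rpl17, at the peptide exit tunnel, had log2 ratios of 0.99 in the aPD-1 and 0.97 in the D+F library, with 22 near-identical copies in the genome. Rpl13a, which can leave the ribosome under interferon signalling, had 0.95 in the control and 1.16 in the D+F+P library. It was counted at a low level here and has 2 near-identical copies in the genome.

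Some members went the other way. Rpl32, the most abundant member, stood at 8293, 9589, 9666 and 10180 CPM in melanoma-like cells and at 5447, 6443, 6348 and 6572 CPM in T/NK-like cells, and was lower still in monocyte/macrophage-like cells, at 3334, 3560, 4129 and 3804 CPM. Rpl31, of the large subunit, stood at 1167, 1267, 1167 and 1253 CPM in melanoma-like cells and at 790, 716, 788 and 770 CPM in T/NK-like cells. Neither gene's values overlapped between these classes, which follows in part from their place at the lower end of the ratios. Members with a tract exactly at the start had median ratios of 0.44, 0.41, 0.42 and 0.39 (13 members) and those without it 0.39, 0.36, 0.37 and 0.38 (49 members).

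Lists around the family were set between the same classes. Of 18 other TOP and elongation genes, such as Eef1a1, 9, 11, 11 and 10 were at least 25% higher in T/NK-like cells (50%, 61.1%, 61.1% and 55.6%, above the 25.7%, 27.5%, 26.2% and 30.5% of all genes), with medians of 0.31, 0.39, 0.42 and 0.41. Of 28 ribosome biogenesis genes 17, 17, 14 and 13 were at least 20% lower, with medians of -0.39, -0.43, -0.33 and -0.29. That is 60.7%, 60.7%, 50% and 46.4%, near the 54.8%, 51.4%, 52.7% and 47.7% of all genes. Of 78 mitochondrial ribosomal proteins 67, 57, 54 and 54 were at least 20% lower (85.9%, 73.1%, 69.2% and 69.2%).

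The family took a smaller share in monocyte/macrophage-like than in melanoma-like cells, with log2 ratios of -0.49, -0.43, -0.32 and -0.21. Rps27 was nonetheless higher there in each library (0.41, 0.45, 0.53 and 0.85), as were Rpl34 (0.25, 0.27, 0.28 and 0.52) and Rpl10, which sits near the centre where peptide bonds form (0.13, 0.20, 0.33 and 0.60), although the control interval of Rpl10 (-0.01 to 0.26) includes 0. Rpl32 (-1.31, -1.43, -1.23 and -1.42) and Rpl31 (-1.36, -1.11, -0.96 and -1.31) lay at the lower end. Rps27 and Rpl34 thus lay above, and Rpl32 and Rpl31 below, the melanoma-like level in both kinds of immune cell.

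**Figure D2:**
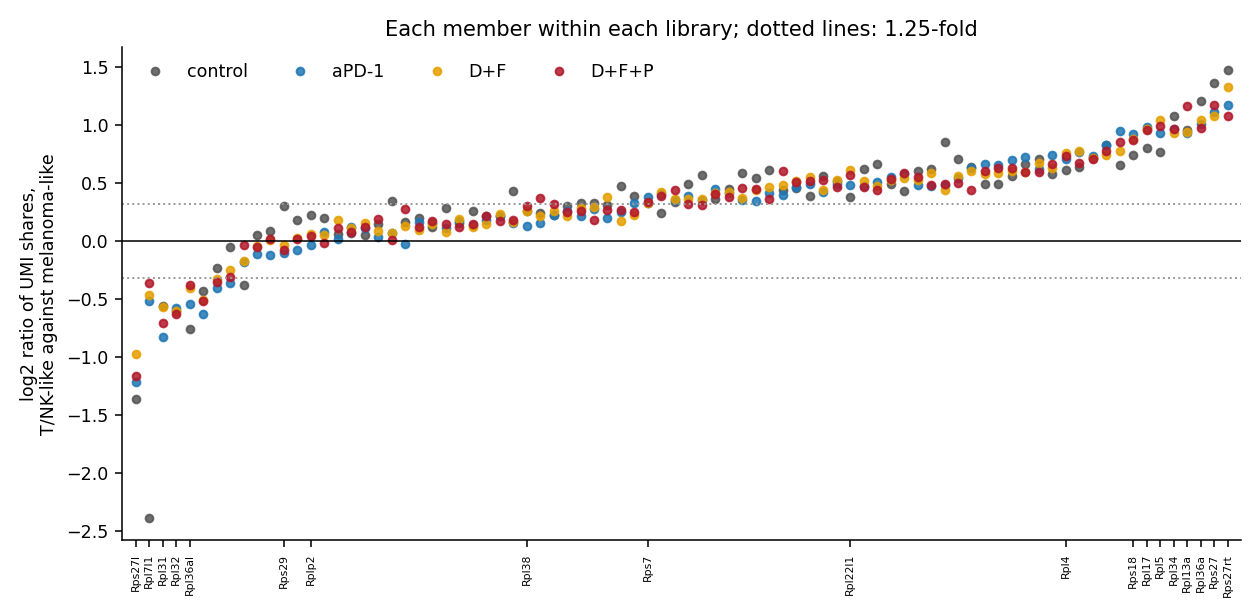
Log2 ratio of each member's UMI share in T/NK-like against melanoma-like cells of the same library (vertical axis), members ordered by their mean along the horizontal axis with some named, 1 colour per library, dotted lines at 25% higher and 20% lower. Most members lie above 0, with Rps27rt and Rps27 at the upper end and Rps27l and Rpl7l1 at the lower end.

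The duplicated members were used differently by the classes. Rps27l, a paralog of Rps27 known as a target of p53, stood at 791, 721, 718 and 749 CPM in melanoma-like cells and at 308, 311, 366 and 335 CPM in T/NK-like cells, a log2 ratio of -1.36, -1.21, -0.97 and -1.16. Together with the opposite difference in Rps27, it took 49.9% (49.6 to 50.1) of the pair's UMIs in melanoma-like cells, 29.1% (27.3 to 31.1) in fibroblast-like, 22.2% (20.8 to 23.6) in monocyte/macrophage-like, 16.1% (15.6 to 16.6) in T-like, 12.6% (10.2 to 15.4) in plasmacytoid dendritic-like and 6.97% (6.0 to 8.05) in NK-like cells. Neighbours in this order of pooled cells do not overlap in their intervals, but single libraries vary within a class: T-like cells had 22.4%, 15.03%, 22.2% and 15.01%, so T-like cells of the control and D+F libraries reached the pooled monocyte/macrophage-like level. Plasmacytoid dendritic-like cells of the control, 21 cells, stood at 24.6% (18.3 to 31.7), above their pooled value. Within melanoma-like cells its share was 53.3%, 45.9%, 51.7% and 45.4%, lower in both libraries that received the antibody.
Rpl22l1, a paralog of Rpl22, took 29.8%, 30.04%, 29.2% and 31.9% of its pair in melanoma-like cells and 26.4% (21.8 to 31.3), 34.8%, 36.4% and 37.4% in T-like cells. In monocyte/macrophage-like cells it took 21.2% (19.9 to 22.5).
Rpl36al, a paralog of Rpl36a, took 16.6%, 17.7%, 15.1% and 18.4% in melanoma-like cells and 7.40% (7.02 to 7.81) in T-like cells of all libraries. Rpl7l1, a relative of Rpl7 with a role in ribosome assembly, took 5.23% (5.03 to 5.43), 4.13% (3.92 to 4.34), 4.24% (4.05 to 4.43) and 3.58% (3.35 to 3.82) in melanoma-like cells, highest in control, and 2.46% (2.25 to 2.70) in T-like cells. Its control T/NK-like value of 14.96 CPM rests on 5 UMIs.

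Rpl39l, a paralog of Rpl39 best known from the testis, was the rarest member with 186 UMIs, and nearly all of them came from fibroblast-like and T-like cells. It had a UMI in 28 of 86 fibroblast-like cells (32.6%, 22.8 to 43.5), 92 UMIs in all and up to 11 in 1 cell, of which 21 of 44 in the aPD-1 and 3 of 25 in the D+F+P library. In T-like cells 29 of 1315 carried it (2.21%, 1.48 to 3.15), with 89 UMIs and up to 10 in 1 cell. By library these were 0 of 33, 12 of 455, 1 of 285 and 16 of 542 T-like cells, and 23 of the 29 were in cluster 15, led by the cytotoxic genes Gzmb and Nkg7. Only 2 of 5238 melanoma-like cells had a UMI at a median depth of 18143 UMIs, where T-like cells had 6038 and fibroblast-like cells 14316. No NK-like cell of 216 had one, which allows up to 1.39% of cells with a UMI at their median depth of 2883 UMIs and sets no limit on cells that express the gene. Rpl3l, a paralog of Rpl3 of muscle with 56 UMIs and thus no member, was found in 47 of 5238 melanoma-like cells (0.897%), never with more than 1 UMI in a cell.

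Between libraries, melanoma-like cells of each treated group had a slightly larger share of ribosomal protein RNA than control. The log2 ratio against control was 0.14 (0.14 to 0.14) for aPD-1, 0.12 (0.12 to 0.13) for D+F and 0.18 (0.17 to 0.18) for D+F+P. Few single members differed by much: 3 of 82 were at least 25% higher for aPD-1, 1 for D+F and 17 for D+F+P, against 10.4%, 8.90% and 13.5% of all genes. At least 20% lower were 0, 0 and 2 members, against 18.5%, 15.9% and 26.4% of all genes. The count for D+F+P (20.7% of 82) is above the share of all genes, and those for aPD-1 and D+F are below it. The median member lay at 0.15, 0.11 and 0.19 and the median gene at -0.06, -0.07 and -0.11. These 3 comparisons share the control library.

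The members at the upper end differed between the libraries. Rps29, of the small subunit, stood at 1833, 2270, 1827 and 2578 CPM in melanoma-like cells, so the 2 libraries with antibody were high and control and D+F alike. Rps7, a small-subunit protein that can bind Mdm2, stood at 1245, 1582, 1350 and 1754 CPM, log2 ratios of 0.35 (0.33 to 0.37), 0.12 (0.10 to 0.14) and 0.50 (0.47 to 0.52). Rps28 stood at 1131, 1334, 1122 and 1534 CPM and Rpl36al at 137, 172, 129 and 187 CPM, in the same order. For aPD-1 the 5 highest also included Rps27rt (0.43, 0.24 to 0.62) and Rpl36 (0.29).
Rps18, in the head of the small subunit, was the highest for D+F, at 1348 CPM in control and 1796 CPM in D+F, a log2 ratio of 0.41 (0.40 to 0.43). The 5 highest also included Rpl11 at 0.27 and Rps23, which takes part in decoding, at 0.26. At the lower end Rpl23a, at the exit tunnel, stood at 894, 903, 719 and 715 CPM, so both libraries with doxorubicin and fasudil were low and control and aPD-1 alike. Rpl23a has 19 near-identical copies in the genome.
Rpl38 was low in D+F alone (1614, 1843, 1341 and 1721 CPM). Rpl7l1 was lower in each treated library (78.2, 67.8, 64.4 and 58.9 CPM), with a log2 ratio of -0.41 (-0.52 to -0.30) for D+F+P. The remaining low members were Rpl4, Rplp0 and Rps27l for aPD-1 (-0.01, -0.02 and -0.13), Rps27l for D+F (-0.14) and Rpl23 for D+F+P (-0.10).

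Members with known roles beyond translation differed between libraries in different ways. Rpl11 was higher than control in melanoma-like cells of each treated library (2861, 3405, 3449 and 3634 CPM), while its partner Rpl5 was lower in each (627, 586, 587 and 579 CPM, log2 ratios of -0.10, -0.09 and -0.11). In monocyte/macrophage-like cells both were higher than control in each treated library, Rpl5 at 401, 484, 609 and 637 CPM and Rpl11 at 1790, 2410, 2659 and 2785 CPM. Rps6, which is phosphorylated by S6 kinase, stood at 1540, 1642, 1779 and 1771 CPM in melanoma-like cells.
Rps27a, made as a fusion with ubiquitin, stood at 3896, 3881, 3655 and 3362 CPM and was lowest in D+F+P. Of the acidic stalk, which binds elongation factors, Rplp0 stood at 4910, 4849, 5487 and 5146 CPM, Rplp1 at 3615, 3898, 3849 and 3756 CPM and Rplp2 at 2506, 2799, 2717 and 2761 CPM. Their order across the libraries differed between the 3 proteins.

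Genes whose products build ribosomes were lower in the treated libraries. Of 28 ribosome biogenesis genes measured in melanoma-like cells, 17, 15 and 18 were at least 20% lower than control in the treated libraries and 0 were at least 25% higher, with medians of -0.38, -0.35 and -0.41. That is 60.7%, 53.6% and 64.3% of the list, against 18.5%, 15.9% and 26.4% of all genes. The list was higher in the proliferating cluster 0 than in clusters 1 to 4 of the same library (medians of 0.24, 0.31, 0.30 and 0.17), and cluster 0 held 615 of 1905 control but 41 of 531 D+F+P cells. Within clusters 0 to 4 taken singly, a split added after the values were seen, the list's median against control was below 0 in 15 of 15 comparisons, from -0.49 (cluster 3, D+F+P) to -0.13 (cluster 2, D+F+P, 22 cells). The median of all genes was below 0 in each of these comparisons as well, from -0.17 to -0.07, so the sign alone does not set the list apart. The list's median lay below that of all genes except in cluster 4 for D+F+P, where it was -0.16, near the median of all genes there (-0.17). Nop58, of the box C/D snoRNA complex, stood at 197, 117, 128 and 122 CPM, and Nolc1, a nucleolar chaperone, was at -0.66 (-0.73 to -0.59) for aPD-1 and -0.80 (-0.89 to -0.71) for D+F+P. Nucleolin, the product of Ncl, stood at 668, 508, 551 and 453 CPM, with control above each treated library. Mitochondrial ribosomal proteins, which serve another ribosome, had 17, 8 and 31 of 78 genes at least 20% lower (21.8%, 10.3% and 39.7%, against the same 18.5%, 15.9% and 26.4% of all genes, so near them for aPD-1 and below them for D+F), with medians of -0.18, -0.16 and -0.23. The list of 10 measured regulators (such as Mtor, Larp1 and Myc) had 1 higher for aPD-1, the translation repressor Eif4ebp1 (269 CPM in control and 339 CPM in aPD-1), and 0 in the other 2 comparisons, and 0 were lower. That 1 gene is 10% of the list, near the 10.4% of all genes at least 25% higher for aPD-1.
The list of 18 other TOP and elongation genes had medians of -0.02, 0.05 and 0.02, with 2, 2 and 2 genes higher and 1, 0 and 2 lower. The higher genes are 11.1% of the list in each comparison, near the 10.4%, 8.90% and 13.5% of all genes. The lower ones are 5.56%, 0% and 11.1%, below the 18.5%, 15.9% and 26.4% of all genes. Rps19bp1, set apart from the members as a protein that binds Rps19, stood at 96.3, 82.7, 87.1 and 73.2 CPM. These values are over all kept barcodes and not over melanoma-like cells alone.

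**Figure D3:**
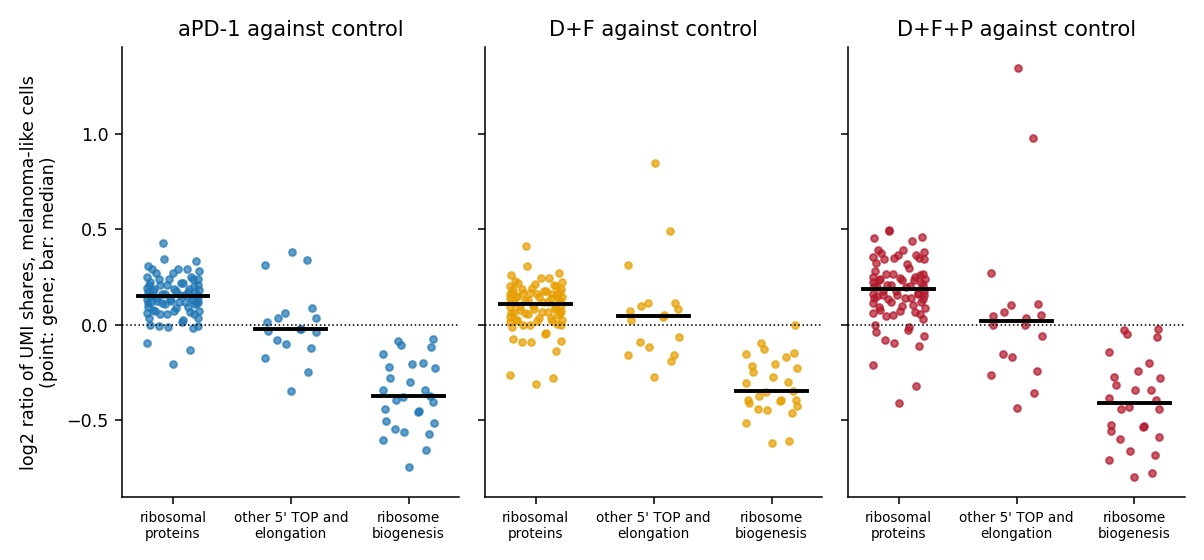
Log2 ratio against control of each gene (points) in melanoma-like cells for 3 gene lists, 1 panel per treated library, with the median as a black bar. Ribosomal protein medians lie at 0.15, 0.11 and 0.19 and ribosome biogenesis medians at -0.38, -0.35 and -0.41.

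The larger share held within melanoma-like clusters, which differ in make-up between the libraries. In clusters 0 to 4 the family's share was above control in 5 of 5 clusters for each treated library, with log2 ratios from 0.09 (cluster 1, D+F) to 0.34 (cluster 4, D+F+P). In cluster 0, the proliferating cells, the share was 19.9%, 23.3%, 22.7% and 23.7%. In cluster 4, whose leading genes include the hypoxia-induced Car9 and Bnip3, it was 20.3%, 23.3%, 23.0% and 25.6%. The D+F+P values of clusters 0 and 2 rest on 41 and 22 cells.

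Monocyte/macrophage-like cells showed a wider spread between libraries than melanoma-like cells. Against control the family's log2 ratio was 0.20 (0.19 to 0.22) for aPD-1, 0.29 (0.28 to 0.31) for D+F and 0.45 (0.44 to 0.47) for D+F+P. At least 25% higher were 16 of 80, 32 of 78 and 56 of 78 members, against 25.7%, 23.9% and 29.4% of all genes. For aPD-1 the 16 members are a smaller share than that of all genes, and for D+F and D+F+P the members' share is larger.
Rpl17 stood highest for D+F+P, at 0.91 (0.75 to 1.08), and the 5 highest there also included Rps7 at 0.86, Rps27 at 0.82 and Rpl35a at 0.81. Among the 5 highest for aPD-1 were Rpl21, which has 56 near-identical copies in the genome, at 0.50 (0.35 to 0.65) and Rpl17 at 0.47 (0.31 to 0.63). Among those for D+F were Rps18 at 0.67 (0.46 to 0.88) and Rps23 at 0.63 (0.45 to 0.80). At the lower end Rpl23a stood at 526, 479, 447 and 550 CPM, and its intervals against control included 0 for each treated library. Control cells of this class carried melanoma markers at 2339 CPM, against 536, 990 and 268 CPM in the treated libraries, and all 9 markers were detected in each. T cell markers summed to 0, 66.2, 37.2 and 151 CPM. Their part in the ratios was not tested. Median cell shares thinned to 1000 UMIs kept the order of the libraries (11.8%, 14.9%, 16.5% and 18.2%).

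Among T/NK-like cells the treated libraries differed little in the family as a whole. D+F+P stood at 28.8%, aPD-1 at 28.1% and D+F at 27.8%, log2 ratios of 0.04 (0.03 to 0.04) against aPD-1 and 0.05 (0.05 to 0.05) against D+F. The sign of both ratios turned when classes came from each cell's own markers (-0.022 and -0.013) or when the thin clusters 10, 17 and 18 were added (-0.063 and -0.051), and the ratio against aPD-1 turned when cells were thinned to 1000 UMIs (-0.023). Members at least 25% higher numbered 2 of 82 against aPD-1, with 13.8% of all genes past that bound, and 10 of 82 against D+F, with 17.3% of all genes.
Rpl13a stood at 189, 217, 189 and 283 CPM, log2 ratios of 0.39 (0.26 to 0.52) against aPD-1 and 0.58 (0.42 to 0.75) against D+F, and it led both comparisons. Rps27 stood at 1784, 1832, 1423 and 2035 CPM, low in D+F alone, and Rps29 at 2266, 2111, 1788 and 2442 CPM, also low in D+F. Rpl27, of the large subunit, was 0.33 (0.27 to 0.39) against aPD-1 and 0.45 (0.38 to 0.52) against D+F. The control class held 48 NK-like cells of 81 and only 8 cells of cluster 15, against 341, 173 and 375 such cells in the other libraries, and was not compared by member.

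Short members held the smallest part of the family's UMIs in the D+F library. A coding sequence of at most 400 bases, a bound chosen after the values were seen, takes 29 of the 83 members. They held 27.93% (27.90 to 27.97), 29.01% (28.97 to 29.05), 26.99% (26.95 to 27.02) and 29.46% (29.41 to 29.51) of the family's UMIs in melanoma-like cells. In T/NK-like cells they held 29.04% (28.74 to 29.35), 28.73% (28.64 to 28.83), 26.73% (26.61 to 26.85) and 29.41% (29.34 to 29.49). In monocyte/macrophage-like cells they held 29.87% (29.41 to 30.33), 29.86% (29.65 to 30.08), 27.81% (27.50 to 28.12) and 29.89% (29.59 to 30.19).
D+F was thus the lowest library in 3 of 3 classes, and its intervals do not overlap those of the others. Across the members measured, Spearman's correlation of coding length with the log2 ratio of D+F against aPD-1 was 0.61 in melanoma-like (82 members), 0.52 in T/NK-like (82 members) and 0.50 in monocyte/macrophage-like cells (80 members). Against control, the same correlation in melanoma-like cells was 0.25 for D+F and -0.55 for aPD-1, so the aPD-1 library also departed from control, in the other direction. In T/NK-like cells it was 0.50 for D+F and 0.18 for aPD-1, and in monocyte/macrophage-like cells 0.41 and -0.18. Whether the short members were lower as such depended on the library set against D+F. Their median ratio of D+F against control was 0.06, -0.02 and 0.18 in the 3 classes, beside 0.14, 0.12 and 0.33 for the longer members. Against aPD-1 it was -0.11, -0.12 and -0.01, beside 0.01, 0.02 and 0.14 for the longer members. These are descriptions across genes that share their libraries. Genes outside the family with coding sequences of at most 400 bases had a median ratio of D+F against aPD-1 of -0.02 in melanoma-like cells (505 genes) against 0.00 for longer ones (9445 genes). Short members lie at the ends of several comparisons above (Rps29, Rps28, Rps27, Rpl38 and Rpl36al), and the part of the library in them was not tested.

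**Figure D4:**
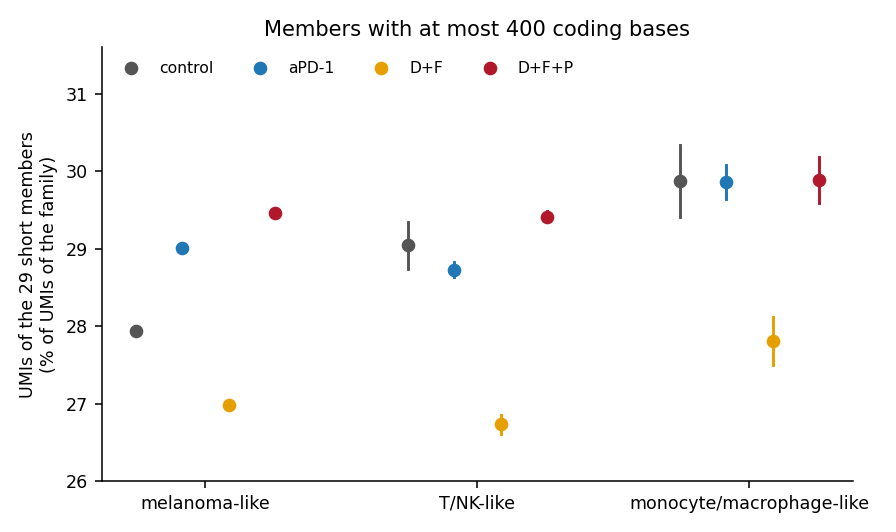
Share of the family's UMIs held by the 29 members with at most 400 coding bases (%, vertical axis, starting at 26%), by cell class and library, with exact 95% intervals for counting error. The D+F points lie at 26.99%, 26.73% and 27.81%, below the other 3 libraries in each class.

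A member and an initiation factor gene had the same order of libraries in each class. Rps18 stood at 1348, 1590, 1796 and 1853 CPM in melanoma-like, 2257, 3018, 3310 and 3395 CPM in T/NK-like, and 973, 1309, 1544 and 1654 CPM in monocyte/macrophage-like cells. Eif3f, a subunit of an initiation factor, stood at 413, 523, 743 and 815 CPM, at 551, 710, 961 and 1055 CPM, and at 303, 441, 701 and 797 CPM in these classes.
Both genes were lowest in control and highest in D+F+P in 3 of 3 classes, although the control T/NK-like value rests on 81 cells of another make-up, 48 of them NK-like. Fau, a fusion with the small-subunit protein eS30 that the symbol rule leaves out, had another order: 3601, 4690, 4466 and 4342 CPM in melanoma-like cells. Rpl11 shared the order of Rps18 and Eif3f, which is thus not theirs alone. It stood at 2861, 3405, 3449 and 3634 CPM in melanoma-like and 3331, 3959, 4046 and 4092 CPM in T/NK-like cells. In monocyte/macrophage-like cells Rpl11 stood at 1790, 2410, 2659 and 2785 CPM. Rps18 and Eif3f were set together here after their values were seen. A difference found alike in tumour, lymphoid and myeloid cells cannot be told apart from one of the library.

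Seen barcode by barcode, the share of ribosomal protein UMIs had a median of 19.7%, 21.6%, 21.4% and 14.0%. Thinned to 1000 UMIs per cell, which left out 152, 283, 279 and 1002 shallower cells, the medians were 20%, 22.6%, 22.1% and 23.1%. D+F+P was thus the lowest library over all kept barcodes and the highest over those with at least 1000 UMIs. Barcodes with a share under 10% numbered 138 of 2286 (6.04%, 5.10 to 7.09), 312 of 2240 (13.9%, 12.5 to 15.4), 219 of 2490 (8.80%, 7.71 to 9.98) and 939 of 2445 (38.4%, 36.5 to 40.4). They were 60.4% of barcodes with 500 to 1000 UMIs and 0 of 2166 with at least 20000 UMIs. In the D+F+P library the share went with depth (Spearman's correlation 0.65 over 2445 barcodes), and against the mitochondrial share (-0.72) and Malat1, a nuclear RNA (-0.74); the 3 measures come from the same counts. Within melanoma-like cells of that library the same correlations were 0.18, -0.18 and -0.27 over 531 cells.

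**Figure D5:**
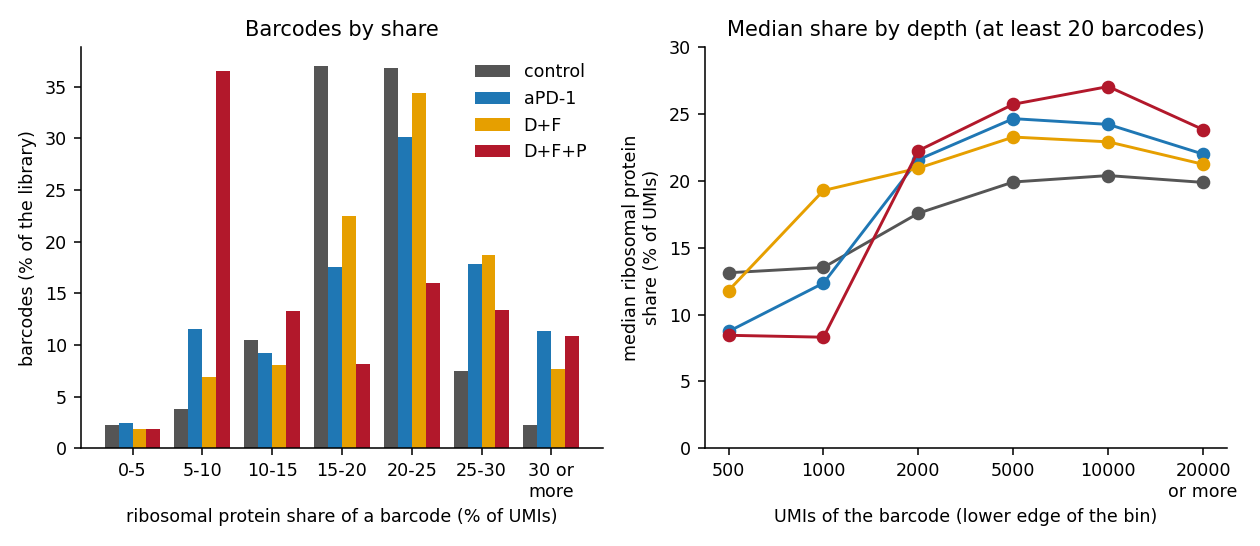
Left, barcodes of each library (%, vertical axis) by their ribosomal protein share of UMIs (horizontal axis); right, the median share by depth of the barcode for groups of at least 20 barcodes. The D+F+P library has 36.6% of its barcodes between 5% and 10%, and its median goes from 8.46% at 500 to 1000 UMIs to 23.9% at 20000 UMIs or more.

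The low barcodes gathered in a few clusters, in each of which nearly the whole family was lower. These clusters were picked for their low family share, so the counts of lower members follow in part from that choice. They describe how the difference is spread over members and are no separate result. Clusters 10 and 18, unnamed and nearest to T cells by markers, held 1150 barcodes, 844 of them from D+F+P, at medians of 668 and 953 UMIs, and were set against T-like clusters 11, 13 and 15. The family's log2 ratio was -0.77 (-0.78 to -0.75) in aPD-1, -0.65 (-0.67 to -0.63) in D+F and -1.40 (-1.41 to -1.39) in D+F+P. These ratios are of summed UMIs and weight deep barcodes. The median barcode of clusters 10 and 18 had a share of 7.97% in aPD-1, 8.79% in D+F and 8.35% in D+F+P, against 27.8%, 27.2% and 27.5% in clusters 11, 13 and 15, so the difference between libraries in the summed ratios is not seen in the medians. At least 20% lower were 73 of 82, 72 of 80 and 82 of 82 members, against 32.5%, 35.9% and 27.7% of all genes. Members of the T list summed to 1789, 1522 and 2587 CPM there, against 6495, 5465 and 5970 CPM in clusters 11, 13 and 15. Melanoma markers summed to 5200, 5074 and 1903 CPM, against 215, 382 and 127 CPM, and their part in the ratios was not tested.
In D+F+P, Rpl36a (-1.83), Rps15a (-1.78), Rplp0 (-1.75), Rpl15 (-1.70) and Rpl22l1 (-1.67) were lowest, and the paralogs Rpl36al (-0.47), Rpl7l1 (-0.51) and Rps27l (-0.53) were nearest to 0, with Rps21 and Rpl31 next. In aPD-1 the lowest were Rps27rt (-1.96), Rpl17 and Rpl7l1 (both -1.28), Rpl34 (-1.27) and Rps15a (-1.24), and Rps27l (0.35) and Rpl31 (0.34) were above 0. In D+F the lowest included Rpl22l1 (-1.14), Rpl17 and Rpl10a (both -1.03). Of 18 other TOP and elongation genes 15 were at least 20% lower in aPD-1, 13 in D+F and 16 in D+F+P. Malat1 stood at 5982, 5571 and 14513 CPM in clusters 10 and 18, against 1215, 1096 and 1014 CPM in clusters 11, 13 and 15.
Cluster 17, unnamed and nearest to NK cells, stood at -1.87 (-1.89 to -1.84) against NK-like cluster 12 in D+F+P, with 78 of 78 members at least 20% lower, against 49.8% of all genes. Rpl29 was lowest there at -2.32 and Rps15 nearest to 0 at -0.89. Malat1 stood at 16904 CPM in cluster 17 and 2011 CPM in cluster 12. Melanoma markers summed to 1532 CPM in cluster 17 and 183 CPM in cluster 12, and NK markers to 2219 and 8740 CPM, and their part in the ratio was not tested. Of 17 other TOP and elongation genes 16 were at least 20% lower.

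Cluster 9 was the low-ribosomal counterpart among melanoma-like cells, with 40, 35, 62 and 32 cells, a median of 6921 UMIs and a median mitochondrial share of 14.7%. It too was picked for its low family share, so its counts of lower members follow in part from that choice. Its ribosomal protein share was 5.95%, 7.82%, 6.52% and 9.47%, against 20.2%, 22.4%, 22.1% and 23.0% in clusters 0 to 4. These are summed shares that weight deep cells: the median cell of cluster 9 had 5.27%, 4.93%, 4.90% and 6.38%, and the aPD-1 and D+F+P sums lie above the upper quartiles of their cells (7.50% and 8.68%). By median, aPD-1 is below control, unlike in the sums. The log2 ratios were -1.76 (-1.79 to -1.74), -1.52 (-1.534 to -1.499), -1.76 (-1.78 to -1.75) and -1.28 (-1.30 to -1.27). At least 20% lower were 81, 82, 82 and 81 of 82 members, against 25.5%, 23.8%, 23.0% and 25.9% of all genes, while the median gene was higher (0.65, 0.66, 0.70 and 0.52).
Rps24, of the small subunit, was among the 5 lowest in each library, at 3778, 4376, 4211 and 4417 CPM in clusters 0 to 4 and 635, 1008, 868 and 1068 CPM in cluster 9. Rps6 was among the 5 nearest to 0 in each library, at -0.59, -0.84, -0.84 and -0.60. Malat1 stood at 11275, 10044, 11193 and 7870 CPM in cluster 9, against 2203, 2081, 2015 and 1447 CPM in clusters 0 to 4. Melanoma markers summed to 18692, 17203, 19551 and 20870 CPM, and T cell markers to 0 to 46.3 CPM. Of 18 other TOP and elongation genes 13, 13, 15 and 14 were at least 20% lower in cluster 9, while ribosome biogenesis genes had medians of 0.02, 0.67, 0.39 and 0.42.

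Over 20 sums of a class in a library with at least 20 cells, the make-up of the family varied little. A member's share of the family's UMIs ranged by a median of 1.77-fold over the 79 members found in every sum, and 53 of the 79 ranged by under 2-fold. The neutrophil-like control sum holds only 811 member UMIs, and without it the median was 1.53-fold and 64 of 82 members ranged by under 2-fold. Over the 4 libraries of melanoma-like cells 73 members ranged by under 25%, with a median range of 1.10-fold. Members with the lowest correlation to the family's level were Rpl7l1 (Pearson's r -0.09), Rps27l (0.53), Rps27 (0.63) and Rpl31 (0.68). Of 2133 other genes with enough UMIs, the closest to the family's level were Rack1 (0.97), Naca (0.96), Eif3i (0.96), Dad1 (0.95), Eif5a (0.94), Eef1a1 (0.94), Rbm3 (0.93), Eif3h (0.93), Eif3f (0.92) and Eef1d (0.92). Rack1 is itself a protein of the small subunit that the symbol rule leaves out. These correlations are over 20 sums that share libraries and classes, and they are a description. The neutrophil-like control sum is among them, with a family share of 3.56% where the others lie at 14.3% to 29.8%. Its part in the correlations was not tested.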

How the data were processed

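Tumour cells were profiled by 5′ single-cell RNA sequencing. Per the file headers, each deposited matrix gives the UMI count of every gene in every barcode called as a cell, as whole numbers without normalization. The submitters' processing notes name Cell Ranger 3.1.0, GRCm38 and mm10. Later filters by the authors are not given in the sources used here.

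Kept barcodes had at least 300 genes, at least 500 UMIs and no more than 20% of UMIs from mitochondrial genes. Counts without the member genes were scaled to 10000 per cell, log-transformed and clustered with scanpy 1.11.5 (2000 variable genes, 30 components, 15 neighbours, Leiden resolution 1). A cluster was named where at least 3 markers of a class were each detected in 10% of its cells, and left unnamed where it was thin and led by none of them. Counts were summed per class and library and expressed per 1000000 counts of all genes (CPM). Ratios carry exact conditional binomial intervals and shares exact Clopper-Pearson intervals at 95%, from scipy 1.17.1. The upper limit behind a count of 0 is 3 counts of the total. Genes needed 100 UMIs in a pair, and a value at least 25% higher or 20% lower served as the threshold for counting. Thinning drew 1000 UMIs per cell. The ratio script was tested on simulated data. Pseudogene copies were searched with BLAST 2.17.0.

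Named were the 5 members with the highest and the 5 with the lowest ratio in each comparison, the 5 most and least abundant, fixed groups and paralog pairs, the 10 other genes most like the family, and up to 4 genes at each end of a list. Some of these genes are not reported here. Members and lists were chosen with earlier results of these data known.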

Additional observations from a re-analysis of the deposited data

How the results depend on the processing

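Counting error alone covers none of the differences between libraries, mice or preparations, and no paired analysis was possible because each group has 1 library. Over 33 results 141 alternatives were computed. Of those for a log2 ratio of the family, 5 turned a sign, all among T/NK-like cells. Another 63 kept the sign but moved outside the counting interval of the main value, and 26 stayed within it. The 12 alternatives for the median share per barcode moved as well. Counts of members and shares cannot turn a sign. Where a value moved, the cause was not tested.

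Against control, the family's log2 ratio in melanoma-like cells (0.14 for aPD-1, 0.12 for D+F, 0.18 for D+F+P) stayed above 0 throughout. Without a filter on barcodes it was 0.13, 0.11 and 0.16, and with a stricter one 0.15, 0.13 and 0.19. Leaving mitochondrial UMIs out of the total gave 0.15, 0.13 and 0.18. Classes from each cell's own markers gave 0.14 for aPD-1 and 0.17 for D+F+P, and clustering with the ribosomal protein genes 0.14, 0.13 and 0.18. Thinning to 1000 UMIs gave 0.15, 0.12 and 0.14, and leaving out the 5% of cells with most UMIs 0.16, 0.13 and 0.19. Of alternatives added after seeing the data, leaving out cluster 9 gave 0.15, 0.13 and 0.19, and the mean within clusters 0 to 4 gave 0.17, 0.14 and 0.24.

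In monocyte/macrophage-like cells (0.20, 0.29 and 0.45) all alternatives were added after seeing the data. A cell's own markers gave 0.15, 0.22 and 0.41, clustering with the ribosomal protein genes 0.30, 0.33 and 0.53, and thinning 0.34 for D+F and 0.49 for D+F+P.

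In T/NK-like cells, the ratio of D+F+P to aPD-1 (0.04) was 0.024 without a filter, 0.040 with a stricter filter, 0.042 with clustering on all genes, -0.022 with own markers and -0.023 after thinning. The ratio to D+F (0.05) was 0.035 without a filter, -0.013 with own markers and 0.0019 after thinning. Added later, cluster 15 alone gave 0.054 and 0.066, and adding clusters 10, 17 and 18 gave -0.063 and -0.051.

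T/NK-like against melanoma-like cells (0.39, 0.34, 0.35 and 0.34 by library) gave 0.36, 0.37 and 0.36 in the treated libraries without a filter, and 0.33 in each with a stricter one and 0.33 in each without the 5% of cells with most UMIs. Leaving out mitochondrial UMIs gave 0.38, 0.32, 0.33 and 0.33, own markers 0.38, 0.32, 0.33 and 0.27, and thinning 0.42, 0.31, 0.31 and 0.29. Clustering on all genes gave 0.35 for D+F+P.

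With a fold of 1.5, members past the bound in either direction in melanoma-like cells numbered 0, 0 and 0 in place of 3, 1 and 19. In T/NK-like cells they were 0 and 0 in place of 2 and 10, and between the classes 28, 23, 22 and 23 in place of 56, 53, 52 and 52. Between the classes 24, 20, 20 and 20 of these were higher and 4, 3, 2 and 3 lower in T/NK-like cells. The share of all genes past a fold of 1.5 was not computed, so these counts stand without that comparison. Relative to UMIs outside the family, melanoma-like counts were 7 for aPD-1 and 2 for D+F.

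The median share per barcode (19.7%, 21.6%, 21.4% and 14.0%) was 20%, 22.6%, 22.1% and 23.1% after thinning, 19.1%, 20.5%, 20.6% and 11.6% without a filter, and 20.1%, 22.8%, 22.4% and 24.1% with a stricter one. The 8 shares of a paralog in its pair were kept under the stricter filter.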
